A study of Homo sapiens with 8 samples.

Results

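The 10 genes described here lie on both sides of MYC in band 8q24 of chromosome 8. They were taken by symbol from a list that leaves out MYC itself, and all 10 were found among the 60668 gene rows of each library. From the centromere to the telomere they are TRIB1, PCAT1, CASC8, POU5F1B, CASC11, PVT1, AC103718.1, GSDMC, FAM49B and ASAP1. The GENCODE types are protein-coding for TRIB1, POU5F1B, GSDMC, FAM49B and ASAP1, antisense for PCAT1 and CASC8, and lincRNA for CASC11, PVT1 and AC103718.1.

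The libraries come from D283-OMO, a D283 MED medulloblastoma line that carries a doxycycline (DOX)-inducible, Flag-tagged OMOMYC transgene introduced with a lentivirus. OMOMYC is a dominant-negative mini-protein derived from MYC. The 4 OMO libraries are from untreated cells and the 4 OMO+DOX libraries from cells given DOX for 72 h, described in the labels as MYC-inhibited. Both groups carry the transgene, and whether the line is a clone or a pool is not given in the sources used here. DOX-treated cells without the transgene were not analysed here, so that effects of DOX and of OMOMYC cannot be told apart. The values are polyA+ RNA-Seq counts per gene, from 46592947 to 54020506 counts per OMO library and from 38390696 to 49249167 per OMO+DOX library. Levels are given as CPM, counts brought to a common library size with the TMM factors of edgeR. These levels are relative, so that a change in total RNA per cell would not show. An adjusted p is that of the edgeR quasi-likelihood fit over all tested genes unless another fit is named.

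Band 8q24 around MYC is poor in coding genes and rich in noncoding RNA. PVT1 is a long noncoding gene that is often amplified together with MYC and hosts several microRNAs. CASC8, CASC11 and PCAT1 are long noncoding genes named for their link to cancer risk or prostate cancer, and POU5F1B is an expressed retrogene of the stem cell factor gene POU5F1. The region also holds many distal enhancers of MYC, and MYC protein can act on genes of its own neighbourhood as on any other. No sequence is printed for these genes.

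MYC itself stood at 937 ± 75.5 CPM (SD, n = 4) in OMO and 1120 ± 56.6 CPM (SD, n = 4) in OMO+DOX libraries, with overlap between the groups. The transgene is made of MYC sequence and its reads may be counted as MYC, so this value does not check the labels. CAD and NCL, widely used MYC targets for nucleotide synthesis and the nucleolus, were lower in every OMO+DOX library, with log2 fold changes (log2FC) of -0.48 (SE 0.05) and -0.44 (SE 0.04). Among markers of group 3 medulloblastoma and photoreceptor fate, 9 of 10 were above 3 counts in at least 1 OMO library and BARHL1 was not. Without MYC, the other 9 summed to between 2209 and 2421 CPM in OMO and between 720 and 739 CPM in OMO+DOX libraries, and 7 of the 9 had a lower mean with DOX. With MYC the sum ran from 3255 to 3325 and from 1774 to 1915 CPM. The 6 neural markers summed to between 78.1 and 82.3 CPM in OMO and between 237 and 257 CPM in OMO+DOX, with SOX2 at 3 counts or fewer throughout. Most of this difference was NES (59.6 and 224 CPM), while DCX went the other way (16.7 and 4.30 CPM). Summed markers of other cell types ran from 0.425 to 0.560 CPM in OMO and 0.0659 to 0.199 CPM in OMO+DOX for 4 leukocyte genes, with CD3E at the floor. For 3 endothelial genes they ran from 2.90 to 3.66 and from 2.59 to 3.49 CPM, with PECAM1 at the floor, CDH5 at 0 and 1.85 CPM and VWF at 3.25 and 1.24 CPM, and for 4 glial genes from 0.270 to 0.855 and from 0.307 to 0.572 CPM, with MOG at 0. For 4 fibroblast genes they ran from 34.9 to 37.3 and from 55.2 to 68.6 CPM, with PDGFRB at 13.5 and 40.3 CPM and DCN at 0.599 and 0.0117 CPM, and for 4 epithelial genes from 13.7 to 17.4 and from 3.95 to 4.70 CPM. The part of these marker shifts in the results below was not tested. In bulk RNA, fewer cells of a type and less RNA per cell cannot be told apart.

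With OMOMYC induced, the neighbours did not move together. TRIB1, PCAT1 and POU5F1B fell to about the same degree, CASC11 fell furthest, PVT1, FAM49B and ASAP1 rose modestly, and AC103718.1 went from almost no reads to a clear level. CASC8 did not pass the test, and GSDMC stayed within a few counts of 0. Of the 10 genes, 8 exceeded 1 CPM in 4 or more libraries and were tested. AC103718.1 passed this filter only through the OMO+DOX libraries, so that its call is no support for a rise. With 0.05 as the limit of the adjusted p, 4 of the 8 were higher with DOX, AC103718.1 among them, and 3 were lower. Over all 15222 genes tested, 38.5% were called higher and 38.1% lower, 76.6% in either direction, so that a call alone sets no gene of the locus apart. The median log2FC of the 8, AC103718.1 included, was 0.01, the same to 2 decimals as over all genes tested. In 8 of the 10 genes, no OMO library overlapped with an OMO+DOX library, with 4 below (35.4% of all genes tested) and 4 above (36.3%), 71.7% together over all genes tested. The 4 above again include AC103718.1.

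**Figure D1:**
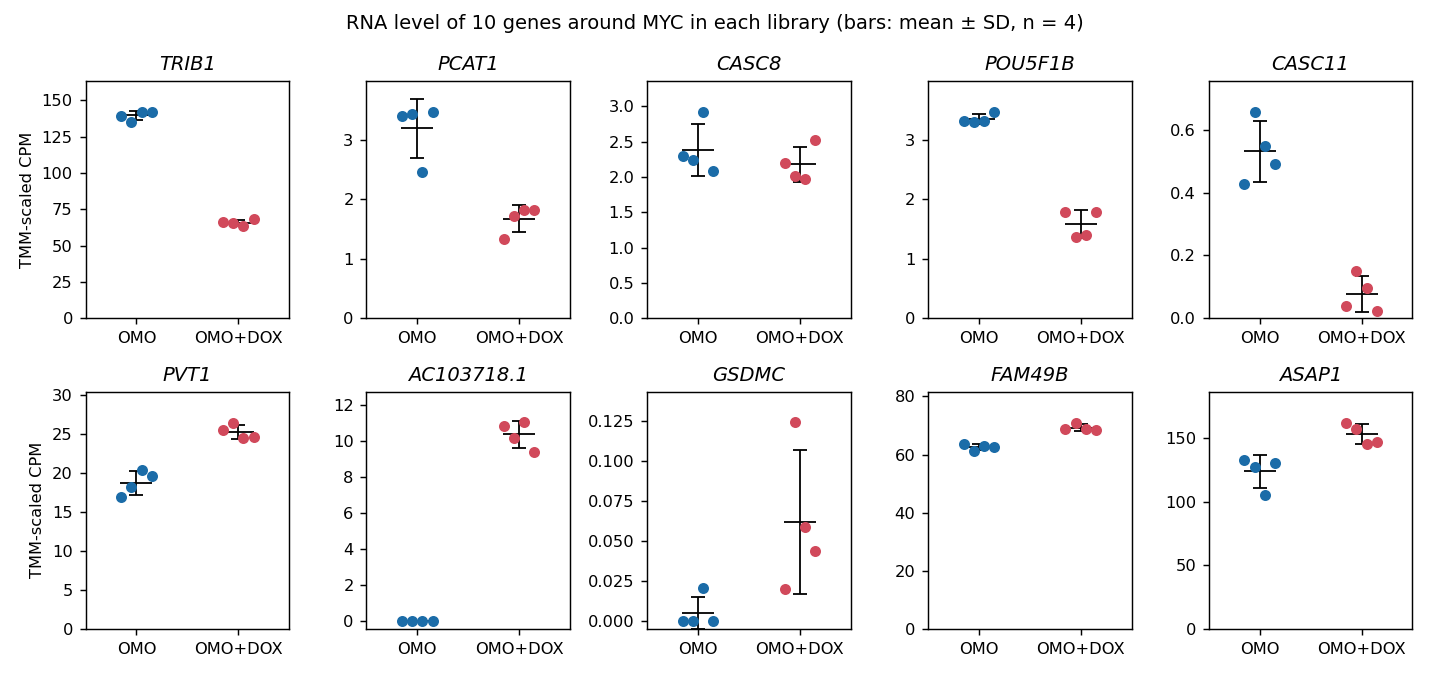
RNA level of each neighbour (y axis, TMM-scaled CPM) in the 4 OMO (blue) and 4 OMO+DOX (red) libraries, with black bars for the mean ± SD, and genes ordered along the chromosome. The groups overlap for CASC8 and GSDMC, and AC103718.1 is at or near 0 in every OMO library and between 9.38 and 11.1 CPM in the OMO+DOX libraries.

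TRIB1 had the most precisely measured fall. TRIB1 (ENSG00000173334.4, plus strand, 125430321 to 125438405 of chromosome 8 in GRCh38) starts 2305 kb on the centromeric side of the MYC start. It encodes a pseudokinase that brings the ubiquitin ligase COP1 to substrates such as the transcription factor CEBPA. The OMO libraries gave 139, 135, 142 and 142 CPM and the OMO+DOX libraries 66.0, 65.4, 63.6 and 68.0 CPM. Every OMO library was far above every OMO+DOX library, with a coefficient of variation of 2.21% and 2.73% within the groups. The log2FC was -1.09 (SE 0.04, adjusted p = 5.85e-10, edgeR), a level 2.12-fold lower. Of all genes tested, 8.70% had a lower log2FC.

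The remaining genes of the TRIB1 and COP1 list were split. Of its 6 genes, all tested, 3 rose and 3 fell, against 76.6% called over all genes tested, with a median log2FC of -0.03. CEBPA, a regulator of differentiation in several lineages and the best known target of TRIB1 and COP1, rose from 8.48 ± 0.735 to 17.8 ± 1.06 CPM (SD, n = 4 each), for a log2FC of 1.07 (SE 0.07). TRIB3, a stress-induced member of the TRIB family, fell from 253 ± 19.2 to 121 ± 14.2 CPM, a log2FC of -1.06 (SE 0.08). These are RNA levels only and say nothing about CEBPA protein.

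PCAT1 and POU5F1B lie between TRIB1 and MYC on the plus strand, with overlapping annotations. PCAT1 (ENSG00000253438.4) spans 863 kb, from 126556323 to 127419050, and POU5F1B (ENSG00000212993.5) lies from 127322183 to 127420066. Both were low in these cells, and both fell. PCAT1 gave 3.40, 3.44, 2.45 and 3.47 CPM in OMO and 1.34, 1.72, 1.81 and 1.82 CPM in OMO+DOX libraries. OMO replicate 3 was below the other OMO libraries and still above every OMO+DOX library. The log2FC of PCAT1 was -0.93 (SE 0.15, adjusted p = 0.000107, edgeR).

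POU5F1B encodes a protein close to POU5F1 (OCT4), the pluripotency factor. It gave 3.32, 3.30, 3.31 and 3.47 CPM in OMO and 1.79, 1.37, 1.40 and 1.78 CPM in OMO+DOX libraries. The OMO libraries were nearly equal, and the groups did not overlap. The log2FC was -1.07 (SE 0.11, adjusted p = 4.14e-06, edgeR). POU5F1 itself, named here after its values were seen, was below the filter at 10.5 to 19.7 counts in OMO and 5 to 14.6 counts in OMO+DOX libraries.

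The division of reads between these genes is uncertain. In GENCODE 29, 848 exonic bases are shared by PCAT1 and POU5F1B on the same strand, 17.1% of the exonic bases of POU5F1B. Both had expected counts that were not whole numbers in 7 of the 8 libraries, the mark of reads that RSEM divided among genes. When both genes were summed, an alternative chosen after seeing the data, the OMO libraries gave 6.72, 6.74, 5.76 and 6.93 CPM and the OMO+DOX libraries 3.13, 3.08, 3.22 and 3.60 CPM. The sum was 2.01-fold lower with DOX (exact permutation, two-sided p = 0.0286, which is the minimum for groups of 4). This sum does not show how much of the fall belongs to either gene. In OMO replicate 3 the expected count of PCAT1 was whole (121) and that of POU5F1B was not (162.73). Reads were thus also divided with genes outside the pair, which the sum does not undo and which was not tested. The start of PCAT1 further shares 1163 exonic bases with FAM84B on the other strand, which stood at 307 ± 29.6 CPM in OMO and 172 ± 4.21 CPM in OMO+DOX libraries (SD, n = 4 each). The kit marks strand, but the strand setting of the counting is not given in the sources used here, and the part of FAM84B reads in the PCAT1 value was not tested.

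CASC8 (ENSG00000246228.6, minus strand, 127289817 to 127482139) runs antisense through the same interval, with no exonic base shared with PCAT1 or POU5F1B. It gave 2.30, 2.24, 2.92 and 2.08 CPM in OMO and 2.20, 2.01, 1.97 and 2.53 CPM in OMO+DOX libraries. The groups overlapped widely, with OMO replicate 3 the highest of all. The log2FC was -0.13 (SE 0.13, adjusted p = 0.382, edgeR). The 95% interval of the ratio of OMO+DOX to OMO levels ran from 0.761 to 1.09, which leaves out a fall as deep as the fitted ratio of 0.475 of POU5F1B, the gene within its span.

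CASC11 showed the deepest fall of the locus, at a very low level. CASC11 (ENSG00000249375.8, minus strand, 127686343 to 127733967) starts 1.47 kb from the MYC start and is read in the opposite direction. The OMO libraries held 21, 34, 27 and 22 reads, or 0.427, 0.656, 0.548 and 0.492 CPM. The OMO+DOX libraries held 2, 6.03, 5 and 1 expected counts, or 0.0393, 0.149, 0.0975 and 0.0220 CPM. All OMO+DOX libraries lay below all OMO libraries, and 2 of them were under 3 counts. CASC11 did not reach the filter, so its means of 0.531 and 0.0770 CPM were compared alone, a 6.89-fold difference (exact permutation, two-sided p = 0.0286). Without the filter, edgeR gave a log2FC of -2.81 (SE 0.39, adjusted p = 4.04e-07), in a fit that called 20.0% of 36881 genes lower. CASC11 shares no exonic base with MYC in GENCODE 29, and the reads counted as MYC, which may include the transgene, were higher in the OMO+DOX libraries with a log2FC of 0.26 (SE 0.06).

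PVT1, on the other side of MYC, moved the opposite way. PVT1 (ENSG00000249859.11, plus strand, 127794533 to 128101253) starts 59.1 kb beyond the MYC start. It gave 16.9, 18.2, 20.3 and 19.6 CPM in OMO and 25.5, 26.4, 24.5 and 24.6 CPM in OMO+DOX libraries. Every OMO+DOX library was above every OMO library. The log2FC was 0.43 (SE 0.06, adjusted p = 5.75e-05, edgeR), a level 1.35-fold higher, with 74.7% of all genes tested below it. The difference from the log2FC of MYC was not tested. The MIR1204, MIR1205, MIR1206, MIR1207 and MIR1208 hairpin genes of the PVT1 locus had 0 counts in all 8 libraries, which were made from polyA+ RNA. Expected counts of PVT1 were not whole in any library, and isoforms, circular forms included, were not analysed here.

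**Figure D2:**
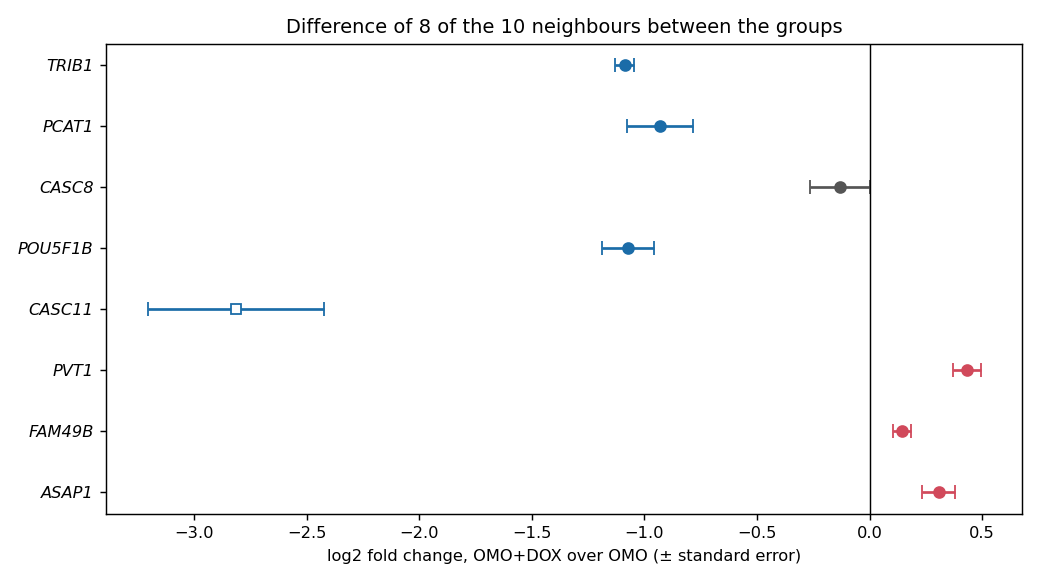
Log2FC (x axis, OMO+DOX over OMO) of 8 neighbours with the standard error, ordered along the chromosome from the top. TRIB1, PCAT1, POU5F1B and CASC11 (open square, from the fit without a filter) lie below 0 in blue, PVT1, FAM49B and ASAP1 above 0 in red, and CASC8 in grey did not pass the test. AC103718.1 is off this scale and GSDMC has no fold change.

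AC103718.1 was the neighbour with the largest difference. AC103718.1 (ENSG00000285108.1, minus strand, 129685401 to 129723023) is a lincRNA gene that starts 1988 kb on the telomeric side of the MYC start. The OMO libraries held 0, 1, 0 and 0 reads. The OMO+DOX libraries held 550, 408, 567 and 427 reads, or 10.8, 10.1, 11.1 and 9.38 CPM. The whole rise was thus from 1 read in 4 libraries to 1952 in the other 4. The ratio of the rates was 2026, with a 95% exact interval from 363 to 80050 that covers counting error only. The fitted log2FC of 10.39 (SE 0.25) depends on the prior count that edgeR adds. Of the 8 neighbours past the filter, AC103718.1 was the only one past the study's stricter limits (FDR 0.001, log2FC of 2 in either direction), which 4.38% of all genes tested passed upward and 2.75% downward, 7.12% together. CASC11 was past both limits in the fit without the filter. The study picked this gene from these libraries for further assays, so that its rise here is not independent evidence. All of its counts were whole numbers and no exonic base is shared with another gene in GENCODE 29.

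AC103718.1 ends 1.72 kb from the start of CCDC26, a long noncoding gene on the same strand that was named here after its values were seen. CCDC26 held 1 to 4 counts in OMO and 15 to 18 in OMO+DOX libraries. Without the filter, edgeR gave it a log2FC of 2.81 (SE 0.44, adjusted p = 3.46e-06), in a fit that called 21.3% of genes higher. On the other side, 25.2 kb separate AC103718.1 from GSDMC. GSDMC (ENSG00000147697.9, minus strand, 129748196 to 129786888) encodes a gasdermin, a family of pore-forming proteins released by protease cleavage. The OMO libraries held 0, 0, 1 and 0 reads of GSDMC and the OMO+DOX libraries 1, 5, 3 and 2 reads. The highest of these is 0.124 CPM, and OMO replicate 3 overlapped with OMO+DOX replicate 1. The exact permutation p was 0.0571 (two-sided), while edgeR without the filter returned an adjusted p of 0.0272. At this depth no fold change can be given for GSDMC.

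Some other members of the gasdermin list were present at higher levels than GSDMC, but not all of them. Of its 9 genes, 6 were tested, of which 3 rose and 2 fell, against 76.6% called over all genes tested, with a median log2FC of 0.26. GSDMB rose from 11.8 ± 0.762 to 37.7 ± 1.20 CPM (SD, n = 4 each), for a log2FC of 1.67 (SE 0.06). GSDME, a gasdermin cut by caspase-3, rose from 1.81 ± 0.109 to 5.07 ± 0.250 CPM, a log2FC of 1.48 (SE 0.09).

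FAM49B and ASAP1, the most telomeric neighbours, code for regulators of the cytoskeleton and rose slightly. FAM49B (ENSG00000153310.19, minus strand, 129839593 to 130017129), now named CYRIB, encodes a RAC1-binding protein that restrains the WAVE actin regulatory complex. It gave 63.7, 61.4, 63.1 and 62.6 CPM in OMO and 68.7, 71.0, 68.9 and 68.3 CPM in OMO+DOX libraries. The groups did not overlap, with a spread below 2% in both, yet the distance between them was small. The log2FC was 0.14 (SE 0.04, adjusted p = 0.00559, edgeR), a level 1.10-fold higher. Without the filter the adjusted p was 0.0893. Its expected counts were not whole in any library, and 168 of its exonic bases are shared with AC022973.4 on the other strand. Scaling to library size alone moved the median of all genes by 0.13 and gave FAM49B a log2FC of 0.27, so that its rise is of the same size as a change of scaling.

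ASAP1 (ENSG00000153317.15, minus strand, 130052104 to 130443660) encodes a GTPase-activating protein for ARF proteins that acts in focal adhesions and membrane traffic. It gave 133, 127, 105 and 131 CPM in OMO and 162, 157, 146 and 147 CPM in OMO+DOX libraries. OMO replicate 3 was the lowest and the groups did not overlap. The log2FC was 0.31 (SE 0.07, adjusted p = 0.00240, edgeR), a level 1.24-fold higher. Without OMO replicate 3 it was 0.23.

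The partners of these coding genes moved in both directions. Over the 5 lists of genes related to TRIB1, GSDMC, FAM49B, ASAP1 and POU5F1B, 36 genes were tested, of which 19 were higher and 16 lower, against 38.5% and 38.1% of all genes tested. Of the 11 genes of the CYRI and WAVE list, all tested, 5 rose and 6 fell, with a median log2FC of -0.20. WASF1, a WAVE subunit of the brain, rose from 59.5 ± 1.20 to 249 ± 4.01 CPM (SD, n = 4 each), for a log2FC of 2.06 (SE 0.04). FAM49A, the paralog of FAM49B, rose from 2.70 ± 0.390 to 7.54 ± 0.338 CPM, a log2FC of 1.48 (SE 0.10). Of the 9 genes of the ASAP and ARF list, 5 rose and 4 fell, with a median log2FC of 0.11. ASAP2, the paralog nearest in domain structure to ASAP1, fell from 92.6 ± 10.8 to 47.4 ± 2.31 CPM, a log2FC of -0.97 (SE 0.08), and GIT2, another ARF GTPase-activating protein, had one of 0.66 (SE 0.07). Of 6 relatives of POU5F1, 4 were tested, with 3 higher and 1 lower. POU3F2 and POU3F3, neural POU factors, had a log2FC of 3.26 (SE 0.05) and 8.06 (SE 0.14), in the opposite direction to POU5F1B. POU3F3 held 5 to 17 counts in OMO libraries (0.238 ± 0.118 CPM) and stood at 65.1 ± 3.28 CPM with DOX. POU3F3 and POU4F1 (22 to 41 counts in OMO) passed the filter only through the OMO+DOX libraries, so that their calls are no support for a rise.

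**Figure D3:**
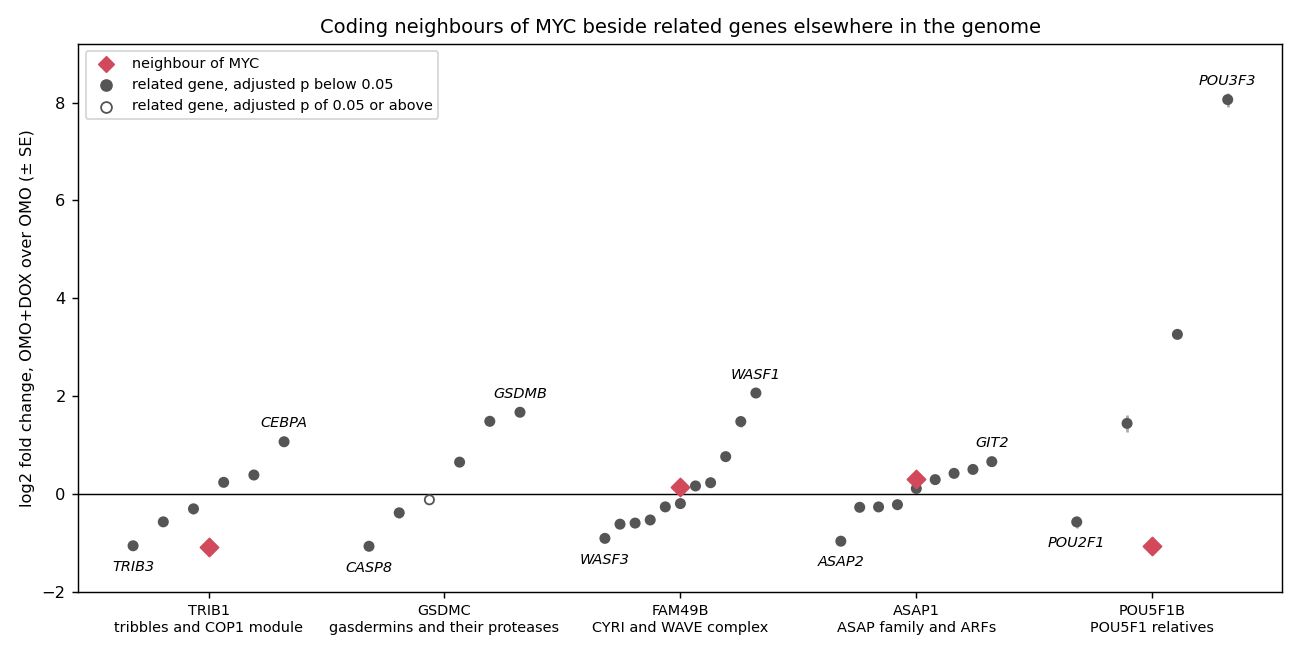
Log2FC (y axis, OMO+DOX over OMO, with SE) of the coding neighbours (red diamonds) beside related genes elsewhere in the genome (circles, filled where the adjusted p was below 0.05). TRIB1 at -1.09 lies close to TRIB3 at -1.06, and POU5F1B at -1.07 is below its 4 tested relatives. GSDMC has no fold change and is not drawn.

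The neighbours spanned a wide range of levels. Levels were compared per kb of exonic sequence in GENCODE 29, which ignores which isoforms are made. In OMO cells, the order was TRIB1 at 33.7 ± 0.746 CPM per kb (SD, n = 4), ASAP1 at 15.0 ± 1.54, FAM49B at 6.86 ± 0.109 and PVT1 at 3.41 ± 0.282 CPM per kb. CASC8, POU5F1B, PCAT1 and CASC11 followed, from 1.02 ± 0.158 down to 0.113 ± 0.0207 CPM per kb, and GSDMC and AC103718.1 were last. No pair next to each other in this order overlapped between libraries except GSDMC and AC103718.1. With DOX, ASAP1 at 18.5 ± 0.961 CPM per kb stood above TRIB1 at 15.9 ± 0.434, and no library of ASAP1 was below a library of TRIB1. AC103718.1 at 0.965 ± 0.0703 CPM per kb then ranked next to CASC8 at 0.930 ± 0.108, and their libraries overlapped, as did those of GSDMC and CASC11. PVT1 stayed behind ASAP1, TRIB1 and FAM49B in both groups, at 4.60 ± 0.162 CPM per kb with DOX. The level of MYC on this scale, 312 ± 25.1 CPM per kb in OMO, was above those of all 10 neighbours.

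Along the chromosome, the neighbours that fell (TRIB1, PCAT1, POU5F1B and CASC11) start on the centromeric side of MYC and those that rose (PVT1, AC103718.1, FAM49B and ASAP1) on the telomeric side. This is a description of 10 chosen genes, given without a test. Within 5 Mb of the MYC start the annotation holds 137 further genes, of which 28 were tested, 25 on the centromeric and 3 on the telomeric side. Of the 28, 7 (25.0%) were higher and 15 (53.6%) were lower, against 38.5% and 38.1% of all genes tested, and their median log2FC was -0.22 against 0.01 over all genes tested. The 15 include CASC19, ANXA13 and LRRC6, whose OMO+DOX means of 0.304, 0.783 and 0.850 CPM were under the 1 CPM of the filter. Of the 3 telomeric genes, 2 were called lower, KCNQ3 and LRRC6. Telomeric genes did not all rise, since KCNQ3 went from 16.9 to 5.62 CPM. The mean of LRRC6 with DOX was under the limit of the filter, so that its call is no support for a fall. On the rest of chromosome 8, 505 genes were tested, 225 higher and 176 lower, with a median of 0.05.

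Among these 28 genes, the largest falls were those of CASC19, ANXA13 and KCNQ3. CASC19, a long noncoding gene whose start lies between those of PCAT1 and POU5F1B, went from 1.56 ± 0.306 to 0.304 ± 0.0652 CPM (SD, n = 4 each), for a log2FC of -2.33 (SE 0.20). CASC19 passed the filter only through the OMO libraries, so that its call is no support for a fall. ANXA13, an annexin gene, had a log2FC of -2.26 (SE 0.28) and KCNQ3, a potassium channel gene of neurons, one of -1.59 (SE 0.11). The mean of ANXA13 with DOX (0.783 CPM) was under the limit of the filter, and its call is likewise no support for a fall. The largest rises among the 28 were those of ZHX2, a zinc finger and homeobox repressor, with a log2FC of 2.64 (SE 0.06), TMEM65, with 1.04 (SE 0.07), and ZHX1-C8orf76, with 0.53 (SE 0.12). The last is a readthrough gene that shares reads with ZHX1 and C8orf76, and its value is uncertain. Genes under the filter are not in this ranking, such as CASC11 and CCDC26 above, or OC90 (0.817 and 0.106 CPM) and FER1L6 (0.0610 and 0.797 CPM), which were picked with their values known. A wider list of 33 coding genes of 8q24 is mostly made of genes in this window, so that it is not a separate observation. Of these 33, 27 were tested, with 7 higher, 15 lower and a median of -0.42. The 15 again include ANXA13 and LRRC6. Over all genes tested, 38.5% were higher and 38.1% lower. SLA, a signalling adaptor gene that lies within TG on the other strand, had the deepest fall among them, from 1.90 ± 0.117 to 0.147 ± 0.0240 CPM, a log2FC of -3.66 (SE 0.16). SLA also passed the filter only through the OMO libraries, so that its call is no support for a fall.

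**Figure D4:**
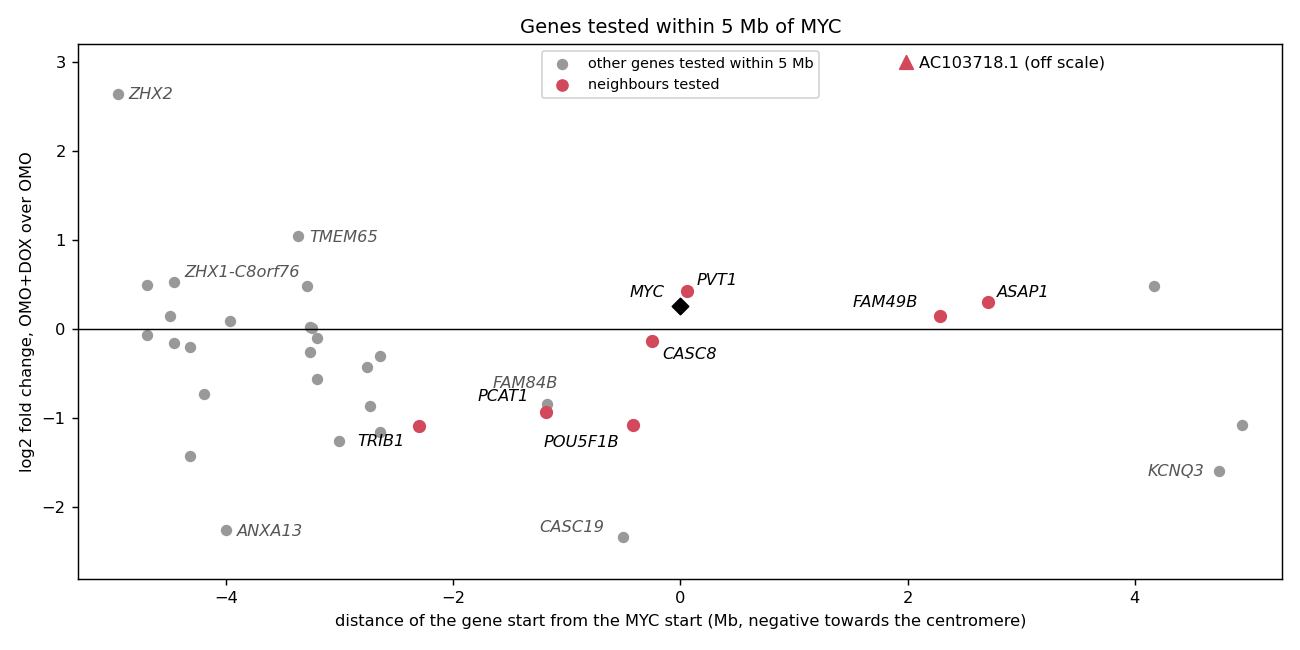
Log2FC (y axis, OMO+DOX over OMO) against the distance of each gene start from the MYC start (x axis, Mb), for the neighbours tested (red), MYC (black diamond) and the 28 other genes tested within 5 Mb (grey). TRIB1, PCAT1 and POU5F1B lie near -1 on the centromeric side, PVT1, FAM49B and ASAP1 between 0.14 and 0.43 on the telomeric side. AC103718.1, with a log2FC of 10.39, is drawn as a triangle at the upper edge.

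Between the start of PCAT1 and that of ASAP1, most of the annotated genes had few or no counts. Of 37 genes there besides the neighbours and MYC, 24 had at most 3 counts in every library, 16 of them none at all, and only FAM84B and CASC19 were tested. Of the 24, 15 are miRNA, snRNA, snoRNA or miscellaneous RNA genes, which polyA+ libraries capture poorly, so that their counts do not show whether they are expressed. Of 21 further listed noncoding genes of 8q24, CASC19 alone was tested, through its OMO libraries only, and it was lower with DOX. CCAT1, PCAT2, CASC21, LINC00977, LINC00976 and ASAP1-IT1 were not found by symbol, so that their levels are not known here. PRNCR1 held 6.7 to 12.3 expected counts in OMO and 1.12 to 5.93 in OMO+DOX libraries, while CCAT2 held 2 to 15 and 3 to 10 counts. TMEM75, within the span of PVT1, held 9 to 19 counts in OMO and 16 to 21 in OMO+DOX libraries. These 3 genes were picked with their values already known. Without the filter the adjusted p was 0.00912 for PRNCR1, 0.696 for CCAT2 and 0.269 for TMEM75 in edgeR.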

How the data were processed

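RNA-Seq libraries of 4 untreated (OMO) and 4 DOX-treated (OMO+DOX, 72 h) replicates were analysed, described by the authors as independent biological replicates. The authors used Trim Galore and STAR with the GENCODE 32 release of GRCh38 and deposited RSEM expected counts per gene, not normalized. Versions are not given in the sources used here. Expected counts were rounded, and genes that exceeded 1 CPM in 4 or more libraries were tested with edgeR 4.0.16 in R 4.3.3 (TMM, quasi-likelihood test, Benjamini-Hochberg adjustment over all 15222 genes tested, no covariates), after tests on simulated data. SE is the absolute log2FC over the square root of F. Neighbours under the filter were compared by exact permutation tests in scipy 1.17.1. A gene with at most 3 counts, or 0.0555 to 0.0781 CPM of a library's total, was taken as at the floor. The interval of the AC103718.1 ratio and the floors cover counting error only. That of CASC8 comes from the edgeR SE by a normal approximation. Names and coordinates come from GENCODE 29 on GRCh38, matched by identifier.

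The neighbours and lists were chosen with earlier results of these data known. Named genes are the 10 neighbours, MYC, CAD and NCL, the 3 largest rises and falls called within 5 Mb of MYC, up to 2 genes of each related list with the largest change and the 3 genes most like PVT1, of which 1 is not reported here. Other genes were named after their values were seen or because they overlap a neighbour. Alternatives were DESeq2 size factors or library size only, no or a stricter filter, DESeq2 1.42.0, unrounded counts, a replicate block, each library left out and the PCAT1 and POU5F1B sum. With a library left out, the list of genes tested was kept. All 8 files were used.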

Additional observations from a re-analysis of the deposited data

Results flagged for a closer look

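In 22 groups of 4 libraries, covering the 10 neighbours and MYC, Dixon's test at its 95% critical value marked 4 single libraries as apart from the other 3 of their group, where 1.1 are expected by chance. PCAT1 stood at 2.45 CPM in OMO replicate 3, against 3.40 to 3.47 CPM in the other OMO libraries. POU5F1B stood at 3.47 CPM in OMO replicate 4, against 3.30 to 3.32 CPM in the others, a gap that is small beside the difference between the groups. The only read of AC103718.1 in untreated cells was in OMO replicate 2 (0.0193 CPM) and the only read of GSDMC in OMO replicate 3 (0.0203 CPM), so that these marks rest on 1 read each.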

How the results depend on the processing

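The number of genes past an FDR of 0.001 and an absolute log2FC of 2 was 1084, and it was 2097 with no filter on low counts and 562 when 1 CPM had to be exceeded in more than 4 libraries. AC103718.1 has no value under the stricter filter, which drops it. FAM49B kept its direction but not its call with no filter (log2FC 0.12, adjusted p = 0.0893 from edgeR). The GSDMC difference of 0.0565 CPM passed an exact permutation test with library size only (0.0596 CPM, p = 0.0286). The cause of these shifts was not tested. Of the other recomputed values, 258 kept their direction and, where tested, their call, or for counts stayed within 1.5 times. With a library left out, CASC11 and GSDMC have 16 values without a test, from -0.488 to -0.412 CPM for CASC11 and from 0.0356 (without OMO+DOX replicate 2) to 0.0705 CPM for GSDMC. With library size only, which moved the median of all genes by 0.13, calls were 7151 higher and 4726 lower against 5868 and 5793. Under this scaling the log2FC was 0.56 for PVT1 and 0.43 for ASAP1, against 0.43 and 0.31. With each library left out in turn, 4 of the 8 tested neighbours were higher and 3 lower in 8 of 8 fits. Over all 15222 genes tested, these fits called 5575 to 6036 higher and 5549 to 6004 lower. AC103718.1 is among the 4, and passed the filter only through the OMO+DOX libraries, so that its calls are no support for a rise. The log2FC ran from -1.11 to -1.07 for TRIB1, -1.04 to -0.83 for PCAT1, 0.37 to 0.47 for PVT1, 0.13 to 0.15 for FAM49B, 0.23 to 0.33 for ASAP1 and 10.09 to 11.93 for AC103718.1. Same-numbered libraries deviated together in 3 of 4 numbers (r from 0.20 to 0.34) but not in replicate 4 (r = -0.27), so that the numbers were not taken to pair the samples. With the replicate number as a block, 5962 genes were higher and 5843 lower, and the same 4 and 3 counts of neighbours were called. Depth limits CASC11 and GSDMC, for which the block and DESeq2 were not run.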

Other observations

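Among the genes whose levels followed PVT1 most closely over the 8 libraries, by Pearson's r of log2(CPM + 1), were AC027644.3 (r = 0.994) and LSMEM1 (r = 0.988). Both lie on other chromosomes. AC027644.3 had means of 0.813 CPM in OMO and 1.44 CPM in OMO+DOX libraries, and LSMEM1 of 0.376 and 1.36 CPM. Both OMO means were under the 1 CPM of the filter, so that the place of these genes in the ranking is no support for a likeness. The 8 points share 2 treatment groups, and 2725 of 15221 genes had an r above 0.9, so that this likeness describes mostly the difference between the groups.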
